A study of Rattus norvegicus with 4 samples.

Results

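The genes described here are 45 genes of the cell cycle, chosen by name for their roles in G1, in DNA replication and in mitosis. Earlier results of these data were known when they were chosen. Of the 45, 42 had at least 1 array probe whose RefSeq transcript accession maps to their symbol, out of 16581 named genes on the array. Mcm5, Top2a and Cenpe matched no probe and have no values below. The measured members fell into 10 G1 genes, 13 S genes of replication and nucleotide supply, and 19 mitosis genes, a class that also takes the proliferation marker Mki67 and the S and G2 cyclin Ccna2.

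A cell that commits to divide passes from G1 into S phase when D-type cyclins with CDK4 or CDK6, and then cyclin E with CDK2, phosphorylate the retinoblastoma protein and release E2F transcription factors. E2F drives the genes that load the MCM helicase onto DNA and supply nucleotides. Genes of G2 and mitosis are switched on later, largely through the CHR promoter element, bound by the MuvB complex together with B-Myb and FoxM1, and through CCAAT boxes bound by NF-Y. Most tissue macrophages divide rarely, whereas a cell line such as NR8383 is kept by continuous growth.

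NR8383 is a rat alveolar macrophage line established from lung lavage. The study set cultures exposed for 4 h to Fe2O3 particles (NRCWE018, 2 µg/mL) against cultures without particles, with 4 biological replicates of each. The labels describe the cells as past 20 passages. The results cover the 4 exposed cultures, hybridised to 1 single-colour array each, so nothing that follows compares cells with and without particles. Control cultures were not analysed here, and the labels name no sorting of cells by phase. RNA of a whole culture cannot tell fewer cells in a phase from less RNA per cell.

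The 75th percentile of the processed signal lay between 756.5 (replicate 4) and 1082 (replicate 3), the median local background between 41 and 46, and no spot was saturated. Of 10 macrophage markers, 9 were well above background on all 4 arrays, among them Cd68, Csf1r, Lyz2 and Spi1. The exception was Marco, a scavenger receptor typical of alveolar macrophages, which was above background on none. Of the genes listed here as markers of other cells, 0 of 7 for lung epithelium were above background. The counts were 2 of 6 for fibroblasts and endothelium (Pecam1 and Cdh5), 1 of 4 for lymphocytes (Cd4) and 1 of 3 for granulocytes (S100a8). Whether other cells were present, and their part in the levels below, was not tested.

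Nearly the whole cell cycle machinery was above background in the exposed cultures. Of the 42 measured members, 41 (97.6%) were well above background on all 4 arrays, where 50.5% of all 16581 named genes were. The count was 9 of 10 for G1 genes, 13 of 13 for S genes and 19 of 19 for mitosis genes. The exception was Cdk6. Members and classes were chosen with earlier results of these data known, so the counts are a description with no test. Levels are given as log2 of the processed signal over the 75th percentile of its array, with mean ± SD over n = 4 arrays. Levels are compared only within a probe, across arrays, because probes differ in how strongly they bind.

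**Figure D1:**
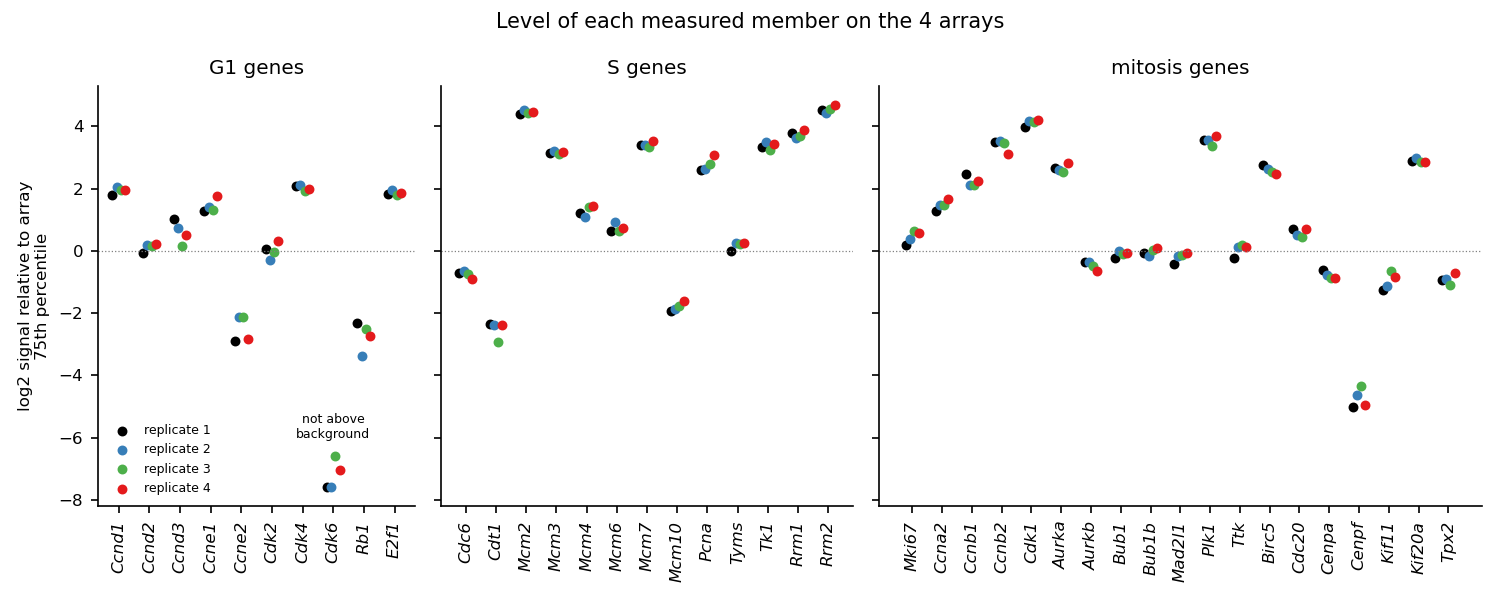
Level (vertical axis, log2 of the processed signal over the 75th percentile of its array, which is 0) for each of the 42 measured members, by class. Each point is 1 of the 4 arrays, coloured by replicate; Cdk6 lies below -6 on every array, and the 4 points of most other genes lie within 0.5 of each other.

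All 3 D-type cyclins, which couple growth signals to entry into the cycle, were above background. Ccnd1 lay at 1.80, 2.05, 1.94 and 1.96 on replicates 1 to 4 (1.94 ± 0.10), a range of 0.24. Ccnd2 lay at -0.07, 0.18, 0.16 and 0.21 (0.12 ± 0.13), with replicate 1 below the other arrays. Ccnd3 differed more, at 1.02, 0.74, 0.17 and 0.51 (0.61 ± 0.36). Replicate 1 was highest under each scaling, and the lowest was replicate 3, or replicate 4 after normexp background correction.

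Their partner kinases were unequal in detection. Cdk4 lay at 2.08, 2.11, 1.93 and 2.00 (2.03 ± 0.08), with processed signals from 3030 to 4540. Cdk6, the other kinase that pairs with D-type cyclins, had 3 probes, and none of them was well above background on any array. The Cdk6 probe with the highest mean gave processed signals of 5.64, 5.16, 11.2 and 5.74. Such a reading gives no lower limit to Cdk6 expression.

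The cyclin E and CDK2 step was above background throughout. Ccne1 lay at 1.28, 1.41, 1.30 and 1.75 (1.43 ± 0.22), with replicate 4 highest, although its unscaled processed signals were close, at 2600, 2610, 2670 and 2540. Without replicate 4 its SD was 0.07. Ccne2 fell into a high and a low pair of arrays, at -2.13 and -2.11 on replicates 2 and 3 against -2.90 and -2.84 on replicates 1 and 4 (-2.50 ± 0.44). The same pairs stood apart after normexp background correction and both other scalings. Cdk2, the kinase of both E-type cyclins, lay at 0.05, -0.29, -0.05 and 0.33 (0.01 ± 0.26).

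The retinoblastoma gene Rb1 lay at -2.32, -3.39, -2.50 and -2.73 (-2.73 ± 0.47), the widest range of the members above background, 1.07. Replicate 2 alone was low, with a processed signal of 94.2 against 114 to 215 on the other arrays, and without it the SD was 0.21. E2f1, the activator that the retinoblastoma protein restrains, lay at 1.83, 1.94, 1.80 and 1.87 (1.86 ± 0.06). Its 4 arrays lay within 0.14 of each other.

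All 13 measured S genes were above background on every array. Cdc6, which helps load the helicase at origins, lay at -0.72, -0.66, -0.73 and -0.89 (-0.75 ± 0.10). Its loading partner Cdt1 lay at -2.35, -2.38, -2.94 and -2.37 (-2.51 ± 0.28), with replicate 3 alone low. Of the helicase subunits, 3 were among the most even members. Mcm2 lay at 4.41, 4.53, 4.43 and 4.45 (4.45 ± 0.05), Mcm3 at 3.15, 3.21, 3.12 and 3.17 (3.16 ± 0.04), and Mcm7 at 3.39, 3.40, 3.33 and 3.54 (3.41 ± 0.09). Each of these has a probe spotted 10 times. The helicase subunits Mcm4 (1.29 ± 0.17) and Mcm6 (0.74 ± 0.14) and the helicase activation factor Mcm10 (-1.79 ± 0.14) varied a little more.

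Pcna, the sliding clamp of the replication fork, lay at 2.61, 2.64, 2.80 and 3.09 (2.78 ± 0.22), the largest SD of an S gene after Cdt1, and replicate 4 was highest under each scaling tried. Its unscaled processed signals were 6540, 6130, 7520 and 6450. Without replicate 4 its SD was 0.10. The genes of nucleotide supply were more even. Thymidylate synthase Tyms lay at 0.18 ± 0.13, thymidine kinase Tk1 at 3.38 ± 0.11, and the ribonucleotide reductase subunits Rrm1 and Rrm2 at 3.74 ± 0.10 and 4.54 ± 0.11.

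Most S promoters held an E2F motif. The S genes were chosen by role, and E2F drives genes of these roles, so the share is not independent of the choice. Promoters of 250 bases before to 50 after the start, from RefSeq on GRCr8, were matched for 34 of the 45 members. The E2F motif was searched as TTTCCCGC, TTTCGCGC, TTTGCCGC or TTTGGCGC on both strands, and 7 of the 11 S promoters held it (63.6%), against 1 of 18 mitosis promoters (5.56%), 1 of 5 G1 promoters (20.0%), and 2.14% of all 33469 promoters. The 7 were those of Cdt1, Mcm2, Mcm3, Mcm5, Mcm6, Mcm7 and Tyms. Among promoters of genes above background on all 4 arrays the share was 4.53%, and among those above background on none 1.21%. Of the 7, Cdt1, Mcm2, Mcm3, Mcm6 and Mcm7 held 2 matches each, Mcm5 3 and Tyms 1. The Mcm2 matches overlap on opposite strands, at -14 to -7 and -10 to -3. So do the Mcm5 matches at -213 to -206 and -209 to -202. Mcm6 and Mcm7 are shown as examples with E2F and NF-Y motifs together, chosen after the matches were seen. Their 250 bases before the start are chr13:42404353-42404602 on the minus strand and chr12:22163179-22163428 on the minus strand, and capitals mark matches to the E2F, CHR or NF-Y motifs.
Mcm6: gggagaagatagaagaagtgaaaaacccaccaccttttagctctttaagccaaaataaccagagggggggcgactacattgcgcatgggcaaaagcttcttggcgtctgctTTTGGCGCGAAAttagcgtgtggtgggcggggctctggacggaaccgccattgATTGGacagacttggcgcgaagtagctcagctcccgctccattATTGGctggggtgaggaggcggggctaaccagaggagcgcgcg
Mcm7: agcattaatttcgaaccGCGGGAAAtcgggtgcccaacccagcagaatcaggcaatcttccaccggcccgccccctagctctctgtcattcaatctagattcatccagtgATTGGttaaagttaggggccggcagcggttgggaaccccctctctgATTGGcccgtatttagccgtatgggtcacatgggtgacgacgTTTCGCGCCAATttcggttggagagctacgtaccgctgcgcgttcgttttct
In Mcm6 the 2 E2F matches overlap on opposite strands, at -139 to -132 and -135 to -128 from the start. In Mcm7 they lie at -233 to -226 and -52 to -45, the latter sharing a base with a CCAAT. A match is a run of letters, and no binding was measured here.

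All 19 measured mitosis genes were above background on every array. Mki67, the gene of the antigen Ki-67 that coats mitotic chromosomes, lay at 0.18, 0.37, 0.64 and 0.58 (0.44 ± 0.21), lower on replicates 1 and 2 than on 3 and 4. Ccna2 lay at 1.28, 1.46, 1.48 and 1.66 (1.47 ± 0.16), with replicate 1 lowest. The mitotic cyclins did not follow that order: Ccnb1 lay at 2.47, 2.12, 2.12 and 2.25 (2.24 ± 0.16), highest on replicate 1, and Ccnb2 at 3.51, 3.53, 3.45 and 3.10 (3.39 ± 0.20), lowest on replicate 4. Their kinase Cdk1 lay at 3.99, 4.16, 4.14 and 4.20 (4.12 ± 0.09), within 0.22 on all arrays.

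The spindle kinase Aurka lay at 2.66 ± 0.13, Aurkb, the kinase of the chromosomal passenger complex, at -0.47 ± 0.14, and Plk1, which acts at centrosomes and kinetochores, at 3.55 ± 0.14. The checkpoint kinase Ttk (Mps1) read -0.23 on replicate 1 and 0.11 to 0.20 on the other arrays (0.05 ± 0.19). The checkpoint genes Bub1, Bub1b and Mad2l1, which hold anaphase until chromosomes attach, lay at -0.10 ± 0.10, -0.02 ± 0.11 and -0.20 ± 0.14. Cdc20, the activator they restrain, lay at 0.59 ± 0.14. Birc5 (survivin), a subunit of the Aurora B complex, lay at 2.61 ± 0.12 and the centromeric histone Cenpa at -0.78 ± 0.12. The kinetochore gene Cenpf lay at -5.02, -4.63, -4.33 and -4.96 (-4.73 ± 0.32), with processed signals of 24.3 to 53.8. Among spindle genes, the kinesin Kif11 lay at -1.26, -1.14, -0.63 and -0.85 (-0.97 ± 0.29), higher on replicates 3 and 4. Kif20a (2.90 ± 0.07) and the microtubule nucleator Tpx2 (-0.90 ± 0.15) varied less.

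Mitosis promoters held another motif. The mitosis genes were also chosen by role, and the CHR and CCAAT boxes switch on genes of this role. Their shares are therefore not independent of the choice. The CHR was searched as TTTGAA on both strands, and 12 of 18 mitosis promoters held it (66.7%), against 1 of 11 S promoters (9.09%), 0 of 5 G1 promoters and 18.3% of all promoters. The 12 were those of Birc5, Bub1b, Ccnb2, Cdc20, Cdk1, Cenpa, Cenpf, Mad2l1, Mki67, Plk1, Top2a and Ttk. The share was 11.8% among promoters of genes above background on all 4 arrays. The NF-Y motif CCAAT, on either strand, was in 14 of 18 mitosis promoters (77.8%), 7 of 11 S promoters (63.6%), 2 of 5 G1 promoters (40.0%) and 37.5% of all. CHR and NF-Y motifs stood together in 10 of 18 mitosis promoters (55.6%) and in 7.41% of all. Ccnb2 and Cdk1 are shown because they hold both, on chr8:79981659-79981908 on the minus strand and chr20:19265043-19265292 on the plus strand.
Ccnb2: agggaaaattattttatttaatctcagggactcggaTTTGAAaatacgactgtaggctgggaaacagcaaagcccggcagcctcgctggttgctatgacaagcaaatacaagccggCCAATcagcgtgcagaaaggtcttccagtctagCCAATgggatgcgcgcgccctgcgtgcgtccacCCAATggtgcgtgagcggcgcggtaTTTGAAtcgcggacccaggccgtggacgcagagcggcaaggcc
Cdk1: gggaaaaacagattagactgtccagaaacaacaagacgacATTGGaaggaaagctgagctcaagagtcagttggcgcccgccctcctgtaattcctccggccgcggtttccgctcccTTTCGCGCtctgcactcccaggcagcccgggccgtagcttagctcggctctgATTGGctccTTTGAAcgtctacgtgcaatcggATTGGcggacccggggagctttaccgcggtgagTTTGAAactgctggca
Ccnb2 has 3 CCAAT motifs that start 33 bases apart, at -134, -101 and -68, and CHR motifs at -214 to -209 and -43 to -38. Cdk1 has CHR motifs at -72 to -67 and -16 to -11, and is the 1 mitosis promoter with an E2F match, at -133 to -126. Ccnb1 has 2 CCAAT motifs and no TTTGAA in its window, which says only that these letters are not there.

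**Figure D2:**
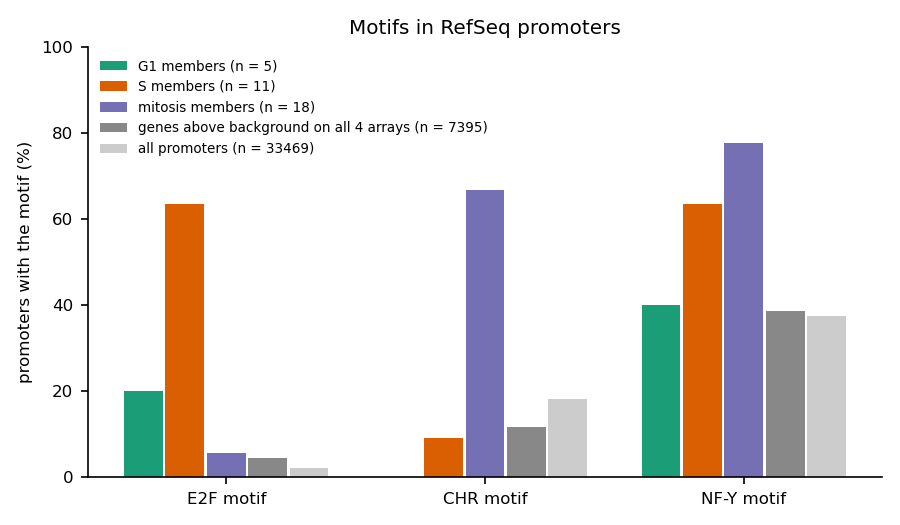
Share of promoters (vertical axis, percent) that hold the E2F, CHR or NF-Y motif, for members of each class, genes above background on all 4 arrays and all 33469 promoters. The E2F share is highest for the 11 S promoters (63.6%) and the CHR share for the 18 mitosis promoters (66.7%); no test was made.

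The members with the widest spread between the exposed cultures were Rb1, Ccne2 and Ccnd3, with SDs of 0.47, 0.44 and 0.36, and the median member had an SD of 0.14. Spread was tested with limma: each gene's variance between arrays was set against a trend of variance on level, fitted to the 8376 named genes that passed background on all 4 arrays. In that limma test 0 of the 41 members passed at an adjusted p under 0.05, where 16 of 8376 genes (0.191%) did. That share gives under 1 call in 41 genes, so the 0 says nothing particular about the members, and the 16 ran from 5 with a constant prior to 157 with normexp correction. At an unadjusted p under 0.05 in the limma test, 2 of 41 members (4.88%) passed, where 5.75% of all genes did, a share near the background. The 2 were Ccnd3 (unadjusted p 0.0378, adjusted p 0.80 in limma) and Rb1 (unadjusted p 0.0486, adjusted p 0.86 in limma). Ccne2 followed at an unadjusted p of 0.0589, then Pcna, Kif11, Cdk2, Ccnb2 and Ccne1 between 0.169 and 0.236 in limma. The count of 2 was 0 without replicate 1, 1 without replicate 2 or without replicate 3, and 3 without replicate 4.

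**Figure D3:**
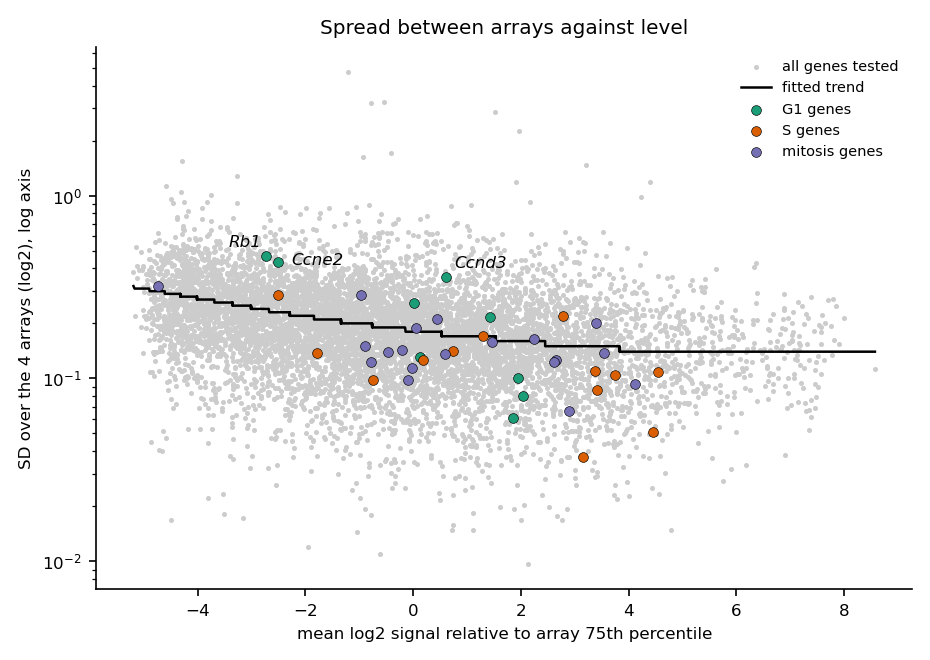
SD over the 4 arrays (vertical log axis, log2 units) against mean level (horizontal axis) for the 8376 genes above background, in grey, with the 41 members coloured by class and the fitted trend as a line. The 3 members of lowest p, Ccnd3, Rb1 and Ccne2, are all G1 genes above the line, and most S genes lie below it.

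The median SD of the 41 members was 0.14, against 0.18 for all genes tested, and 27 members (65.9%) lay below the trend for their level, against 56.4% of all genes. By class the median SD was 0.22 for G1 genes, 0.11 for S genes and 0.14 for mitosis genes, and 4 of 9, 10 of 13 and 13 of 19 lay below the trend. The number of spots differed between the classes too: 7 of 9 G1 genes but 5 of 13 S genes were read from a probe with a single spot. Among single-spot genes alone the median SD was 0.26 for 7 G1 genes, 0.14 for 5 S genes, 0.14 for 10 mitosis genes and 0.18 for 7478 genes in all. Of single-spot genes, 13 of 22 members (59.1%) and 56.1% of all genes lay below the trend. No test was made between the classes.

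The deposited error estimate of a spot was set beside the SD between arrays. Its median was 0.14 on the log2 scale for the members and 0.14 for all genes tested. It was 0.14 or 0.15 for most members whatever their SD, so it says little about the precision of a single gene. The SD between arrays was larger than this error in 16 of 41 members (39.0%) and in 61.2% of all genes. The estimate is for 1 spot, whereas 19 of the 41 members average 2 or 10 spots. For the 9 members spotted 10 times, the SD among spots of an array, averaged over the 4 arrays, was 0.05 to 0.09, and single arrays ran from 0.03 to 0.14. The SD between arrays was 2.75 times that average for Plk1, 2.34 times for Mki67, 2.18 times for Ccnd1 and 0.74 times for Mcm3. The measures are unlike, because an array's level is a mean of its spots and that average is for single spots. A ratio under 1 therefore does not mean less spread than spot noise gives. Each culture was read on 1 array, and the sample labels used here do not state which slide held it. A difference between cultures and one between array positions cannot be told apart.

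Class averages differed between arrays by 0.14 or less, and by 0.16 or less under every alternative run. For each member the deviation from its own mean over the 4 arrays was taken, and deviations were averaged over a class. The mean deviation of S genes was -0.05, 0.01, -0.05 and 0.09 on replicates 1 to 4, that of mitosis genes -0.05, 0.01, 0.02 and 0.03, and that of G1 genes 0.00, -0.02, -0.01 and 0.03. The median deviation of all genes tested was -0.02, 0.01, -0.03 and 0.07. Replicate 4, the array of lowest signal, was highest in these values for all 3 classes, but after quantile normalization its mean deviation was -0.03 for G1 and -0.04 for mitosis genes, and -0.02 for both with the percentile taken over probes above background. Under both settings it stayed highest for S genes (0.02 and 0.04), while replicate 3 was highest for mitosis genes (0.06 and 0.07). The part of the lower signal in this was not tested. With quantile normalization the range of the S genes' mean deviation shrank from 0.14 to 0.04. Differences between classes within an array do not depend on how the array is scaled by a constant. S minus mitosis was 0.00, 0.00, -0.06 and 0.06, and S minus G1 was -0.05, 0.02, -0.04 and 0.06. These differences were not tested. On 1 array the SD of the deviations among members of a class was 0.09 to 0.29. Of the 41 members, 17 were highest on replicate 4 (41.5%), as were 36.3% of all genes.

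**Figure D4:**
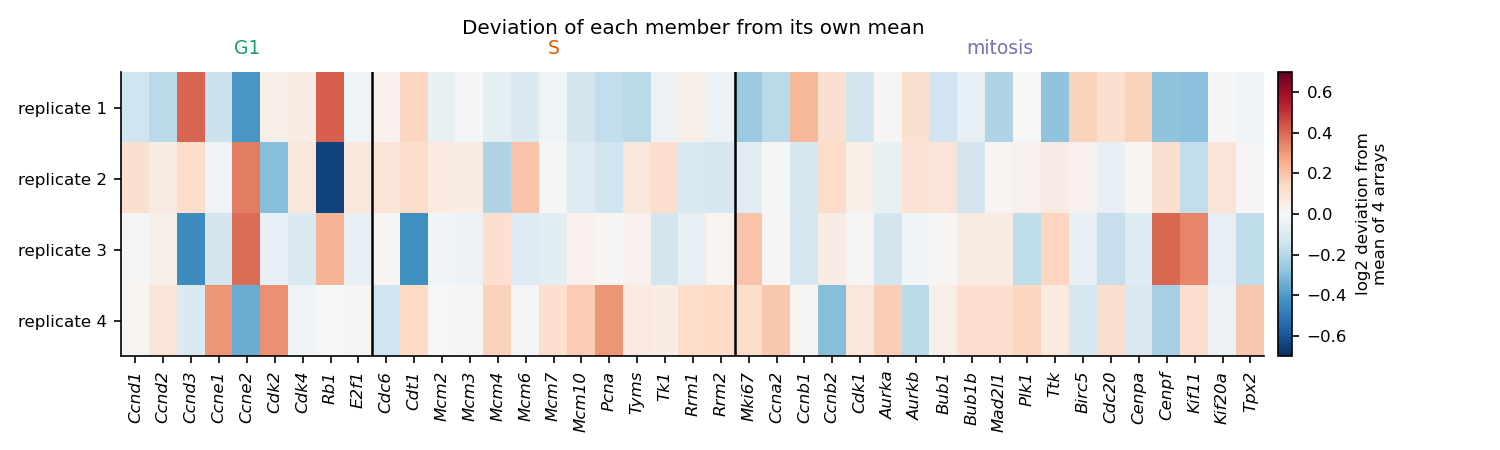
Log2 deviation of each of the 41 members above background (columns, by class) from its own mean, on each array (rows, replicates 1 to 4); red is higher and blue lower. The strongest colours are in Rb1, Ccnd3, Ccne2, Cdt1, Cenpf and Kif11, and no class is of 1 colour along a row.

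Several members have more than 1 probe, which gives a second reading of the same RNA on the same array. Of 15 members with several probes, the probes disagreed on being above background in 1 (6.67%), Mad2l1, against 23.6% of 3658 genes. Its probes read -0.41, -0.18, -0.14 and -0.08, then -0.48, -0.28, -0.27 and -0.11, and a dim one that was above background on no array. In 14 members, 17 other probes were above background on all 4 arrays: 12 (70.6%) had the same highest array as the probe used, against 46.2% of 1973 such probes over all genes, and 9 (52.9%) the same lowest array, against 54.4%.

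For Ccnb2 both probes were lowest on replicate 4: the second read 1.91, 1.90, 1.89 and 1.01. Without replicate 4 the SD of Ccnb2 was 0.04 in place of 0.20, and with the mean over both probes it was 0.32. For Mki67 all 4 probes were highest on replicate 3 or 4, and the probe with the next highest level read -0.66, -0.40, -0.15 and -0.18. Another Mki67 probe read -2.96, -3.08, -2.61 and -2.97, no higher on replicate 4 than on replicate 1. Both probes of Ccna2 were lowest on replicate 1 and highest on replicate 4, the second at -2.26, -2.04, -2.05 and -1.70. After normexp correction the probe used for Ccna2 was highest on replicate 3. Both probes of Ccnd1 were highest on replicate 2. Of the 3 Mcm4 probes, a pair read alike (1.21, 1.08, 1.41 and 1.44 against 0.98, 0.79, 1.15 and 1.24), and the third, a dim one, ran the other way at -2.69, -2.22, -2.61 and -3.28. Rb1, Ccnd3, Ccne2, Cdt1, Pcna and Kif11 have 1 probe each, so their arrays cannot be checked in this way.

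**Figure D5:**
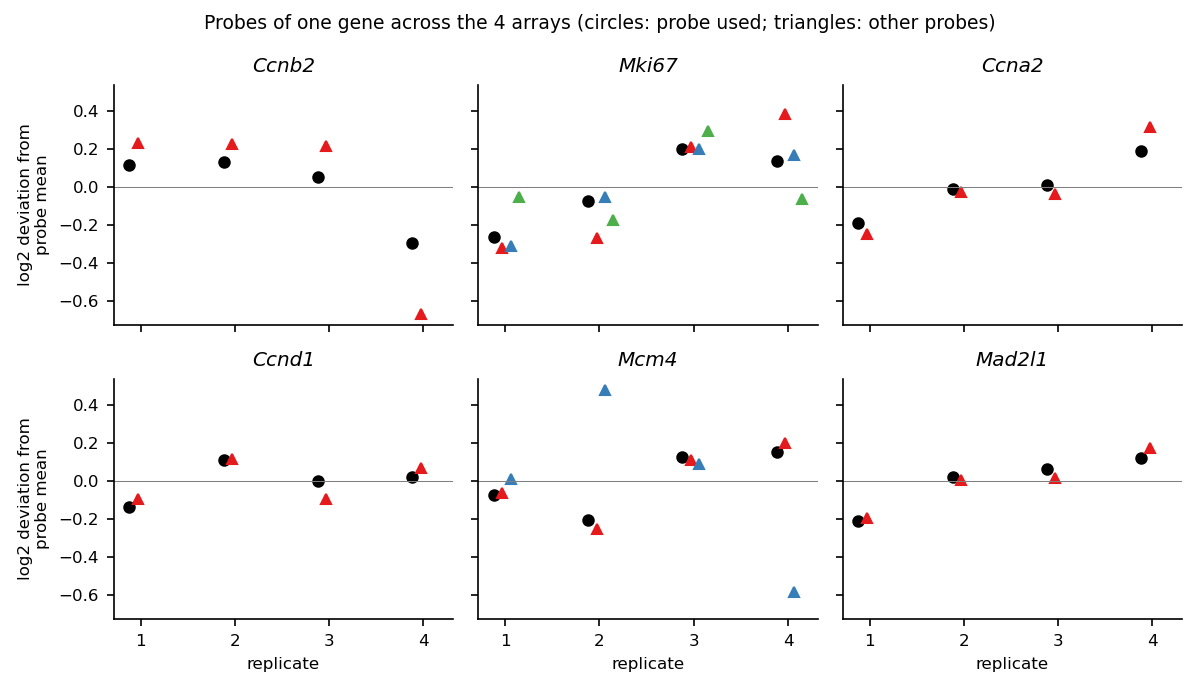
Log2 deviation of each probe from its own mean (vertical axis) on replicates 1 to 4 (horizontal axis) for 6 members with several probes above background; circles are the probe used and triangles the others, drawn side by side. Both Ccnb2 probes lie lowest on replicate 4, and 1 of 3 Mcm4 probes lies apart from the other pair.

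Other genes of the cycle were above background almost as completely. Of 102 measured genes in 11 lists, 94 (92.2%) were above background on all 4 arrays, 6 more on 1 to 3 arrays and 2 on no array, against 50.5% of all named genes. Kinetochore, kinesin, cohesin and condensin, MuvB, and CDC25 and WEE1 genes were above background in every measured case. The regulators of the late programme Mybl2 (B-Myb, 0.98 ± 0.11) and Foxm1 (1.28 ± 0.22) were among them. The genes above background on some arrays were the repressor E2f7, the pocket protein gene Rbl1, the origin subunit Orc5, the polymerase alpha subunit Pola1, the ubiquitin ligase subunit Skp2 and Cdkn2a. The ribonucleotide reductase subunit Rrm2b, a p53 target, and Cdkn1c were above background on none. E2f7 read -3.76, -5.13, -6.19 and -7.20 and was above background on 2 arrays, and E2f8 matched no probe.

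Of 7 CDK inhibitors, 5 were above background on all 4 arrays. Cdkn1a (p21) lay at 2.99, 3.11, 2.72 and 3.51 (3.08 ± 0.33), for which limma gave an unadjusted p of 0.0271 (adjusted p 0.70). Its other probe, at -3.17, -2.60, -3.35 and -2.23, put the arrays in the same order, but both probes share the scaling of an array. Unscaled, the probe used read 8500, 8490, 7140 and 8650, and the other 119, 162, 106 and 161, which is not the same order. Cdkn1b (p27) lay at 0.48 ± 0.16, Cdkn2b at -2.13 ± 0.42, Cdkn2c at -1.70 ± 0.15 and Cdkn2d at -0.84 ± 0.14. Cdkn2a, whose products restrain CDK4 and MDM2, was above background on 1 array, at -5.98, -5.21, -6.99 and -5.14, and Cdkn1c on none.

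In the limma test 0 of the 94 other cell cycle genes passed at an adjusted p under 0.05, and 7 (7.45%) had an unadjusted p under 0.05, where 5.75% of all genes did. Named after their values were seen, they were Cdkn1a, Lin54, Rfc1, Pkmyt1, Ndc80, Prc1 and Espl1. The separase gene Espl1 had the lowest p of them in limma (unadjusted 0.00152, adjusted 0.212) and read 2.00, 1.75, 1.51 and 0.67, but its other probe was above background on 1 array only. The kinetochore gene Ndc80 and the midzone gene Prc1 were also lowest on replicate 4, at -1.40 and 0.55. Of their other probes, 1 of 2 for Ndc80 and 0 of 1 for Prc1 were lowest there. That Ndc80 probe was above background on 3 arrays only, with a processed signal of 18.7 on replicate 4. The remaining Ndc80 probe, above background on all 4 arrays, read -4.55, -4.17, -4.25 and -4.25, lowest on replicate 1. The other Prc1 probe read 0.22, -0.03, 0.20 and 0.23.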

How the data were processed

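RNA of each exposed NR8383 culture, labelled with Cy3, was read on an Agilent rat array, per the labels' protocols. The deposited intensity values are scanner output of Agilent Feature Extraction 11.0.1.1, a version named in the submitters' processing notes. Each processed intensity is background-subtracted and detrended within its array, per the file headers, with no scaling between arrays. Other deposited columns used were the error of that intensity, the median spot and local background intensities, and the software's marks, each 0 or 1, for detection, saturation and outliers. Whether the authors scaled between arrays is not stated in those sources.

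Groups and replicate numbers came from the sample titles, and no 2 arrays held identical values. The members, classes and lists were chosen with earlier results of these data known. Control spots were left out, as were spots marked as outliers (1.13% to 1.62% of an array) unless all spots of a probe were marked. Log2 signal was set relative to the array's 75th percentile and repeat spots were averaged. Of 45598 probes, 21109 were named through the RefSeq gene table of GRCr8. A gene took the probe above background on most arrays, then of highest mean.

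The test of spread used squeezeVar of limma 3.58.1, run in R 4.3.3 (robust, with a trend on level and 9.16 prior degrees of freedom), as a one-sided F test for larger variance over 8376 genes, with Benjamini-Hochberg adjustment and a threshold of 0.05. It was checked on simulated data, where it missed some of the genes given a larger spread. By rule, members were given with their values if above background on no array, among the 8 of lowest p, split between probes, or among the first 4 of a class. Cdk4, E2f1, Mcm7, Cdk1 and Cenpf were also given on every array, outside that rule. The others were given by summaries. The comparisons of spots and of probes of a gene were chosen after the data were seen. The alternatives were normexp with an offset of 50 (on the median spot intensity, since the mean was not used here), other scalings, marks, filters, priors and probe rules, and leaving out each replicate. The precision is limited by the number of arrays.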

Additional observations from a re-analysis of the deposited data

Results flagged for a closer look

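Dixon's test was applied to 44 sets of 4 values (41 members and the 3 class means), and 2 sets had an outlying array, no more than the 1 in 20 that chance gives. Cdt1 had a ratio of gap to range of 0.954, with replicate 3 low at -2.94 against -2.38 to -2.35 on the other arrays. Ccnd2 had a ratio of 0.849, with replicate 1 low at -0.07 against 0.16 to 0.21. Each was read from a single spot of a single probe.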

How the results depend on the processing

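No paired analysis was possible because the samples form 1 group. The counts of members above background (41 in all, 9 G1, 13 S and 19 mitosis) and the 0 members with excess spread at an adjusted p under 0.05 in limma were the same under every alternative run. The median SD of the members lay between 0.11 and 0.16. The count of 2 members at an unadjusted p under 0.05 in limma was 1 with the positive and significant mark, with a non-robust prior, and with detection asked on 1 array or more, and 4 with the mean over probes. It ran from 0 to 3 when 1 replicate was left out. With normexp correction the 2 were Ccnd3 and Ccnb2 (unadjusted p 0.0117 and 0.0435 in limma). Rb1 then had an SD of 0.30 and an unadjusted p of 0.116 in limma. With a constant prior the 2 were Rb1 and Ccne2 (unadjusted p 0.0378 and 0.0489 in limma). Ccnd3 then had an unadjusted p of 0.0939 in limma. The range over arrays of the mean deviation was 0.04 for S genes with quantile normalization, 0.08 for G1 genes and 0.12 for mitosis genes with the 75th percentile over probes above background, and 0.13 for G1 genes with the median over members. For S genes the range was 0.15 with normexp correction and 0.16 with the mean over probes or the median over members. When 1 replicate was left out it ran from 0.02 to 0.05 for G1, 0.05 to 0.14 for S and 0.02 to 0.08 for mitosis genes. The mean deviation of G1 genes on replicate 4, 0.03, was -0.03 with quantile normalization and -0.02 with that percentile, and that of mitosis genes, 0.03, was -0.04 and -0.02. Over all genes the count with excess spread, 16, ran from 5 with a constant prior to 157 with normexp correction, and was 10 with the non-robust prior and 7 without replicate 2. The highest array of a member was the same in 30 to 33 of 41 members under normexp and the other scalings. The causes were not tested.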
